A study of Mus musculus with 24 samples.

Results

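The iron and heme handling genes described here in monocytes of peripheral blood were Cd163, Hmox1, Blvra, Blvrb, Slc11a1, Tfrc, Slc40a1, Ncoa4, Fth1 and Ftl1. They were chosen by name, for their known roles, with earlier results of these data known. They were found by their symbols among the 53715 genes of the table, 10 of 53715. Fth1 named 2 entries, and the longer one on chr19 (9982703 to 9985092, plus strand, GRCm38) was used, since the other on chr8 (86915157 to 86915514) is a processed pseudogene in GENCODE M21 whose highest value was 8.

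The 24 libraries formed 6 groups of 4. Ly6Chi cells came from wt mice and from N2ΔMy mice, after Sham or imiquimod (IMQ) treatment, and Ly6Clo cells came from both genotypes after IMQ only, so that a Sham group of Ly6Clo cells was not analysed here. N2ΔMy mice carry floxed Notch2 and Cre recombinase driven from the Lyz2 locus, which is active in myeloid cells in general and not in one monocyte subset alone, and wt mice were their littermate controls. All mice were 8 to 10 weeks old, on a C57BL/6 background, and carried a GFP reporter in the Cx3cr1 locus that was used in the sort. IMQ mice received 50 mg of Aldara cream with 5% imiquimod, an agonist of TLR7, each day for 4 to 5 days, and cells were sorted on day 5. Sham is the name in the labels, while the methods also speak of untreated controls. Values are normalized read counts, and replicates 1 and 2 of each group carry other library identifiers than replicates 3 and 4 (called library series 1 and 2 here). What the 2 series stand for is not given in the sources used here. Comparisons were made with limma on log2(value + 1), and a gene was called where the adjusted p did not exceed 0.05 and the log2 fold change reached 0.6 either way.

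Notch2 itself lay between 7240 and 11518 in the 12 N2ΔMy libraries and between 12656 and 20005 in the 12 wt libraries, with no overlap. Summed markers of Ly6Chi monocytes (5 genes) lay between 55152 and 81724 in Ly6Chi libraries, between 524 and 1892 in wt Ly6Clo libraries and between 7117 and 10009 in N2ΔMy Ly6Clo libraries, so the N2ΔMy Ly6Clo cells held more of them than wt Ly6Clo cells did. Summed markers of macrophages (14 genes) were also higher there, at 9581 to 14442 against 4853 to 6849 in wt Ly6Clo libraries, with 3 of the 14 at 0 in all 4 libraries of either group. T and NK cell markers (6 genes) summed to at most 60 in any library. Hemoglobin and other red blood cell markers (9 genes measured) summed to between 777 and 1574 in the 4 IMQ libraries with replicate number 4 and to at most 372 in all other libraries. In a sort of bulk cells, fewer cells of a type cannot be told apart from less RNA per cell.

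Macrophages and monocytes recycle iron by breaking down heme. CD163 takes up complexes of hemoglobin and haptoglobin, heme oxygenase 1 (Hmox1) opens the heme ring and frees iron and biliverdin, and the biliverdin reductase Blvra turns this biliverdin into bilirubin. Blvrb is also a biliverdin reductase, but it acts on other isomers of biliverdin. The transferrin receptor Tfrc brings in iron bound to transferrin, Slc11a1 (NRAMP1) pumps metal ions out of the phagosome, ferritin made of heavy (Fth1) and light (Ftl1) chains stores iron, Ncoa4 carries ferritin to the lysosome for its release, and ferroportin (Slc40a1) is the exporter of iron from cells. C57BL/6 mice are known to carry an Slc11a1 allele whose protein does not work, which read counts of the gene do not show.

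Part of this family is known to be controlled after transcription. Iron regulatory proteins bind an iron-responsive element, a short hairpin with the loop CAGTGN, and block translation where it lies in the 5′ untranslated region or protect the mRNA where it lies in the 3′ untranslated region. The element was searched in GENCODE M21 transcripts (GRCm38) as a loop of 6 bases between 2 strands of 5 paired bases (G with T allowed) with a C before the upper stem, and was found in 4 of the 10 genes, against 272 of 21901 protein-coding genes (1.24%). The 7 elements are shown because they separate genes whose mRNA level is known to respond to iron (Tfrc) from genes that respond mainly in translation (Fth1, Ftl1, Slc40a1), and an mRNA count does not see the latter. The loop is in capitals.
Fth1, chr19:9982733-9982759, plus strand: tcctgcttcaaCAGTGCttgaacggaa
Ftl1, chr7:45459780-45459806, minus strand: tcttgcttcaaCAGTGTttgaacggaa
Slc40a1, chr1:45925466-45925492, minus strand: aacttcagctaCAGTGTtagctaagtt
Tfrc element 1, chr16:32631220-32631246, plus strand: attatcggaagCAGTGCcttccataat
Tfrc element 2, chr16:32631599-32631625, plus strand: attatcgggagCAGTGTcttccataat
Tfrc element 3, chr16:32631664-32631690, plus strand: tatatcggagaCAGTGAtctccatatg
Tfrc element 4, chr16:32631711-32631737, plus strand: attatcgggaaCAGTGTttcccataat
The elements of Fth1 and Ftl1 lie in the 5′ untranslated region and share most of their letters, that of Slc40a1 also lies in the 5′ untranslated region, and the 4 elements of Tfrc lie in its 3′ untranslated region. Such a match is a description of the transcript and was not measured here.

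Per kilobase of gene model, the mean over the 24 libraries was highest for Fth1 (7559 ± 1190 normalized counts per kb, SD, n = 24), followed by Ftl1 (3915 ± 2020), Slc11a1 (837 ± 486) and Hmox1 (712 ± 329). Blvra (154 ± 28.4) and Blvrb (133 ± 87.3) came next, and Ncoa4 (24.5 ± 8.34), Tfrc (15.1 ± 10.1), Cd163 (5.62 ± 4.99) and Slc40a1 (0.361 ± 0.517) were lowest. Neighbours in this order were not always separable, because Slc11a1 exceeded Hmox1 per kb in 14 of 24 libraries and Blvra exceeded Blvrb in 16 of 24. Ftl1 exceeded Slc11a1, the next gene, in all 24 libraries. Of the 10 genes, 9 reached a value of 50 in at least 1 library and were tested, and Slc40a1 did not.

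**Figure D1:**
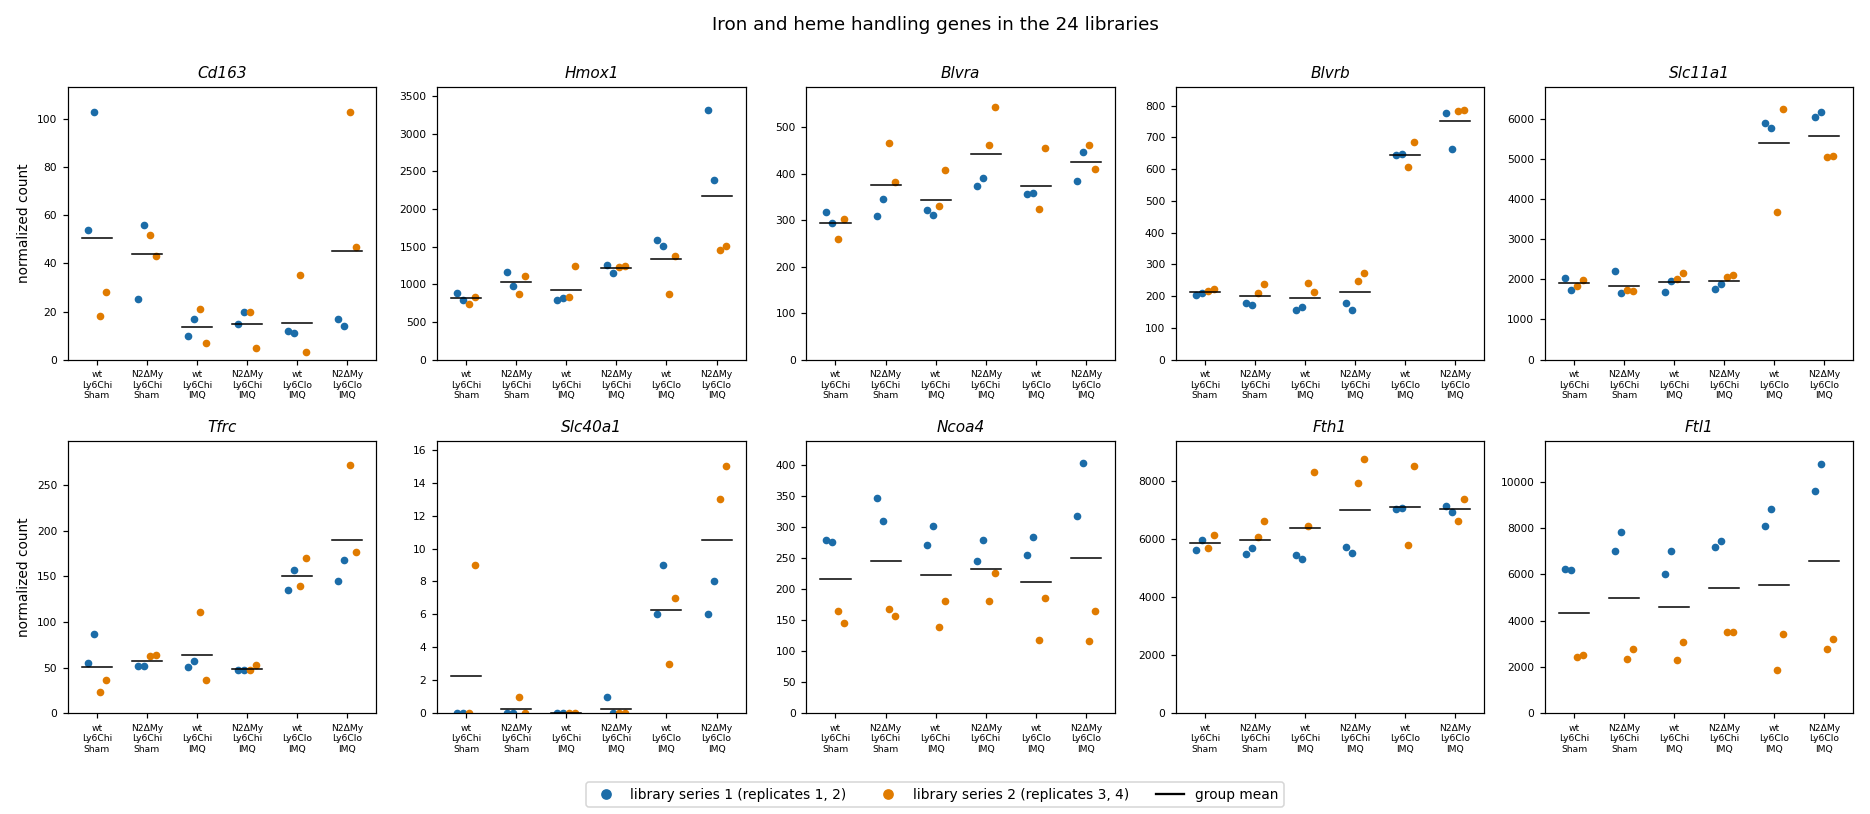
Normalized counts (y axis, linear, from 0) of the 10 genes in the 6 groups (x axis), with 1 point per library coloured by library series and a line at the group mean. Blvrb, Slc11a1 and Tfrc stand higher in both Ly6Clo groups than in all Ly6Chi groups, while Ftl1 and Ncoa4 separate by library series within every group.

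The comparison of Ly6Clo with Ly6Chi cells of IMQ mice asks how cells in the Ly6Clo gate differ from classical monocytes. In wt mice this gate holds the subset that patrols vessels, which is known to arise from classical monocytes. In N2ΔMy mice cells in this gate held more Ly6Chi and macrophage markers than in wt mice, as given above. Blvrb, Slc11a1 and Tfrc were higher in Ly6Clo cells of both genotypes, by 2.52-fold to 3.73-fold, and Hmox1 passed the test in N2ΔMy cells. In wt cells 3 of 9 members were called, all higher, where 24.6% of the 11230 genes tested were called (11.9% higher). In N2ΔMy cells 4 of 9 members were called, all higher, against 17.4% of all genes (9.01% higher). The median log2 fold change of the 9 members was 0.16 in wt and 0.74 in N2ΔMy cells, beside -0.01 for all genes tested in both.

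Blvrb, which also acts as a flavin reductase, had 644, 647, 606 and 684 normalized counts in wt Ly6Clo libraries and 777, 664, 783 and 786 in N2ΔMy Ly6Clo libraries. In wt Ly6Chi IMQ libraries it had 155, 166, 240 and 212 and in N2ΔMy Ly6Chi IMQ libraries 178, 156, 249 and 274. The lowest Ly6Clo library, at 606, thus lay far above the highest Ly6Chi library, at 274. The difference was 1.76 ± 0.15 on the log2 scale in wt (SE, 3.38-fold, adjusted p = 9.05e-06) and 1.84 ± 0.18 in N2ΔMy cells (3.59-fold, adjusted p = 2.96e-05). The Sham Ly6Chi libraries of both genotypes, at 171 to 237, lay in the range of the IMQ Ly6Chi libraries.

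Slc11a1 showed the same order. Its normalized counts were 5906, 5781, 3688 and 6243 in wt Ly6Clo libraries and 6057, 6186, 5040 and 5066 in N2ΔMy Ly6Clo libraries. The 16 Ly6Chi libraries of all 4 groups lay between 1652 and 2209, below all Ly6Clo libraries. Its log2 difference was 1.45 ± 0.16 in wt (2.73-fold, adjusted p = 4.86e-05) and 1.51 ± 0.11 in N2ΔMy cells (2.86-fold, adjusted p = 3.21e-06).

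Tfrc was low throughout, with 135, 157, 139 and 170 normalized counts in wt Ly6Clo and 145, 168, 272 and 177 in N2ΔMy Ly6Clo libraries. The wt Ly6Chi IMQ libraries had 51, 57, 111 and 37, and the N2ΔMy Ly6Chi IMQ libraries 47, 48, 48 and 53. The groups did not overlap, although the third wt Ly6Chi library came near the lowest Ly6Clo library. The log2 difference was 1.33 ± 0.30 in wt (2.52-fold, adjusted p = 0.00549) and 1.90 ± 0.22 in N2ΔMy cells (3.73-fold, adjusted p = 0.000118). Within the second library series alone (2 libraries against 2), the wt difference was 1.25 with an adjusted p of 0.129.

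Hmox1 had 1586, 1504, 873 and 1381 normalized counts in wt Ly6Clo libraries and 792, 822, 827 and 1239 in wt Ly6Chi IMQ libraries, so that the groups overlapped. In N2ΔMy cells it had 3317, 2385, 1449 and 1513 in Ly6Clo and 1259, 1148, 1233 and 1242 in Ly6Chi IMQ libraries, with no overlap. The N2ΔMy difference was 0.74 ± 0.23 (log2, 1.67-fold, adjusted p = 0.034) and the wt difference 0.53 ± 0.20 (adjusted p = 0.0637, not called). It was larger in the first library series, with a log2 difference of 1.23 in N2ΔMy and 0.94 in wt cells, against 0.26 and 0.12 in the second. The N2ΔMy call was lost on leaving out any of 6 of the 8 libraries (all but replicates 3 and 4 of N2ΔMy Ly6Clo), with an adjusted p of 0.0565 to 0.0845 and a difference of 0.51 without replicate 1 of N2ΔMy Ly6Clo. In wt cells the gene was called without replicate 3 of wt Ly6Clo (0.72, adjusted p = 0.00616) or without replicate 4 of wt Ly6Chi IMQ (0.68, adjusted p = 0.0198). The N2ΔMy call was also lost without the filter on low values (adjusted p = 0.208) and without the trend (adjusted p = 0.076).

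Slc40a1 was read in Ly6Clo cells at a few counts, with 6, 9, 3 and 7 normalized counts in wt and 6, 8, 13 and 15 in N2ΔMy libraries. In Ly6Chi IMQ libraries it was at 0 in all 4 wt libraries and at 1, 0, 0 and 0 in N2ΔMy libraries. The groups did not overlap in either genotype (2-sided exact permutation test, p = 0.0286 in both, the smallest that 70 splits allow). One Sham library, replicate 4 of wt Ly6Chi, reached 9, while all others of the 8 Sham libraries were at 0 or 1. No fold is given against groups at or near 0.

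Groups also did not overlap for 3 of the 9 tested members in wt cells (Blvrb, Slc11a1 and Tfrc) and for 4 in N2ΔMy cells (the same genes and Hmox1), where 35.4% and 27.8% of all tested genes did not overlap. Cd163, Blvra, Ncoa4, Fth1 and Ftl1 were not called in either genotype. For Cd163 the N2ΔMy difference was 1.25 ± 0.67 (adjusted p = 0.202), with -0.16 in the first series and 2.65 in the second, where alone it was called (adjusted p = 0.0198). Neither were the differences between genotypes in these contrasts, since the genotype by subset interaction called 0 of 9 members (1.03% of all genes). The interaction was 0.57 ± 0.38 for Tfrc, 0.22 ± 0.33 for Hmox1, 0.09 ± 0.24 for Blvrb and 0.06 ± 0.20 for Slc11a1 on the log2 scale, each with an adjusted p of at least 0.886. Neutrophil markers (11 genes) were lower in the Ly6Clo libraries, at 1982 to 3972 against 7325 to 12412 in the Ly6Chi IMQ libraries, and the 14 macrophage markers were higher, at 4853 to 6849 against 3259 to 4343 in wt and at 9581 to 14442 against 4492 to 6359 in N2ΔMy cells. The neutrophil marker Ly6g was at 0 in all of these libraries. The part of the marker transcripts in the differences was not tested. Without replicate 4 of every group, where red blood cell transcripts were highest, and without replicate 3 of every group, 4 members were called in each genotype, an alternative chosen after seeing the data.

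**Figure D2:**
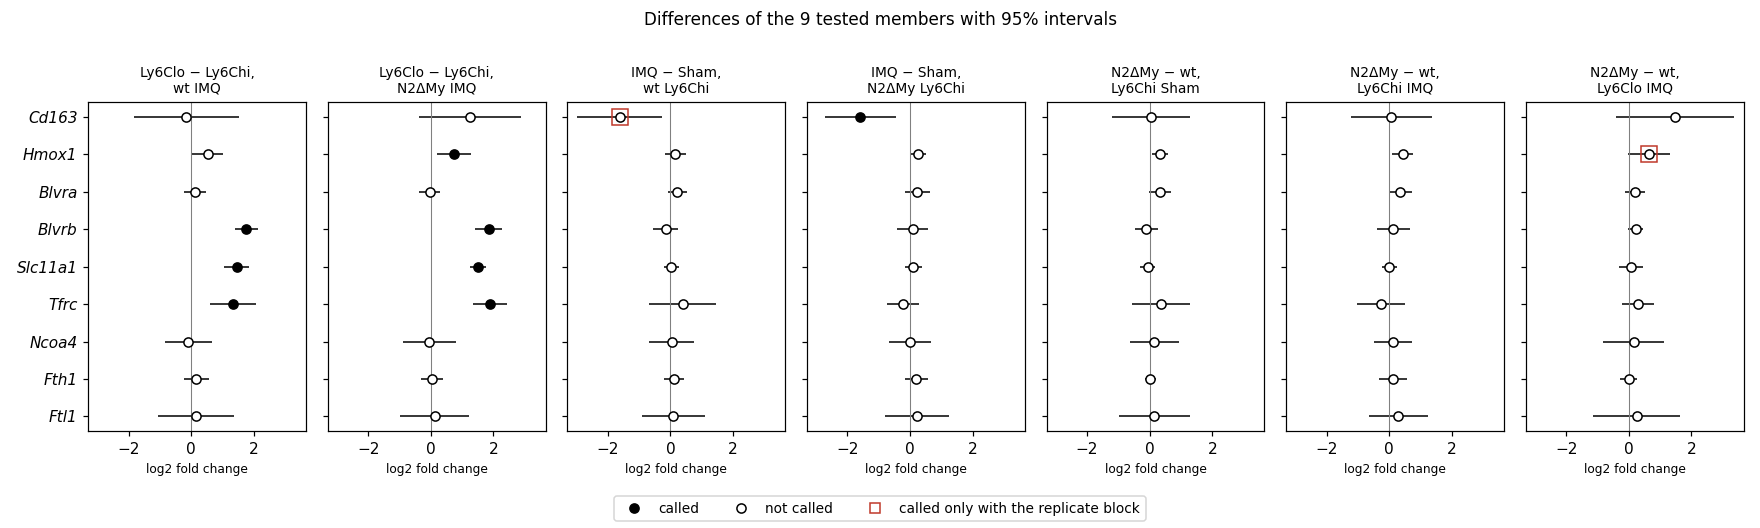
Log2 fold changes (x axis, on log2(value + 1)) of the 9 tested members (y axis) in 7 comparisons, with 95% intervals from limma over 4 libraries per group. Filled points were called, open points were not, and red squares mark the genes called only with the replicate number in the model (Cd163 in wt Ly6Chi cells after IMQ and Hmox1 between genotypes in Ly6Clo cells).

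The 3 genes that were higher in Ly6Clo cells of both genotypes were read in RefSeq promoter windows (GRCm38.p6), 250 bases before the start site nearest to the start of the deposited gene. They are shown because these genes moved together. Searched on both strands were the RBPJ motif TGGGAA (RBPJ is the DNA-binding partner of Notch), an antioxidant response element TGACNNNGC, AP-1 TGANTCA, a nuclear receptor site AAAGGTCA, C/EBP TTGCNNAA, an E-box CACGTG and PU.1 GAGGAAGT. Matches are in capitals.
Slc11a1, chr1:74374953-74375202, plus strand: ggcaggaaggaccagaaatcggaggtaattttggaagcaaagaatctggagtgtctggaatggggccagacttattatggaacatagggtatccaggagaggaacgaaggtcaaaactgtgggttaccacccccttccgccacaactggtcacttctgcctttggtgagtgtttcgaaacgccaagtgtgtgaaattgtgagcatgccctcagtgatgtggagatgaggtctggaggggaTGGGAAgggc
Blvrb, chr7:27447728-27447977, plus strand: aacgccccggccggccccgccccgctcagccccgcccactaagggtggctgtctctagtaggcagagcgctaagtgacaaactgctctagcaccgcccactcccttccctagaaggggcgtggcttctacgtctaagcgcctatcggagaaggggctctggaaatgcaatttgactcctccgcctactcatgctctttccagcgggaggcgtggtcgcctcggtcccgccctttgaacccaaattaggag
Tfrc, chr16:32608646-32608895, plus strand: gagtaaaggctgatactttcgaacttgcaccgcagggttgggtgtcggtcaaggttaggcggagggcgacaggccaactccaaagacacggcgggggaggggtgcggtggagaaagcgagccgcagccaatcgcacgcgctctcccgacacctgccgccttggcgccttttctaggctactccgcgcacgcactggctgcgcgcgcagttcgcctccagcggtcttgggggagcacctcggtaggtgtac
TGGGAA was found in the Slc11a1 window, 10 bases before the start, and is held by 21.6% of the 32851 windows searched. None of the 7 letter strings was found in the Blvrb and Tfrc windows shown, while the window of another Blvrb start, 4440 bases downstream, holds TGGGAA. TGACNNNGC, which is bound by Nrf2 in many genes of heme breakdown, is held by 10.2% of windows, and among the 8 members with a window it was found for Blvra at 49 bases before the start and in 1 of the windows of Ncoa4 at 44 bases before. AP-1 is in 6.7% of windows, AAAGGTCA in 1.3%, C/EBP in 9.6%, CACGTG in 6.0% and GAGGAAGT in 2.4%.

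The comparison of IMQ with Sham in Ly6Chi cells asks how the classical monocytes differ after several days of TLR7 stimulation. Cd163 was the member with the largest difference in both genotypes, with a log2 fold change of -1.59 in N2ΔMy cells, where it was called, and of -1.62 in wt cells, where it was not. In N2ΔMy Ly6Chi cells 1 of 9 members was called, lower, where 8.70% of all genes were called (4.55% lower). In wt Ly6Chi cells 0 of 9 were called by limma, where 9.49% of all genes were, and 1 of 9 members had an unadjusted p under 0.05, against 29.4% of all genes. The median log2 fold change of the 9 members was 0.08 in wt and 0.10 in N2ΔMy cells, beside 0.01 for all genes in both.

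Cd163 had 54, 103, 18 and 28 normalized counts in wt Sham and 10, 17, 21 and 7 in wt IMQ libraries, with 1 Sham library inside the IMQ range. In N2ΔMy cells it had 25, 56, 52 and 43 in Sham and 15, 20, 20 and 5 in IMQ libraries, with no overlap, as for 19.5% of all tested genes. In N2ΔMy cells it fell by 1.59 on the log2 scale (SE 0.47, adjusted p = 0.049). In wt cells the difference was -1.62 ± 0.55 (adjusted p = 0.0738), and it was called once replicate numbers were blocked (adjusted p = 0.0253), as were 11.9% of all genes. The interaction of genotype and treatment was 0.04 ± 0.76 with an adjusted p of 1.0, and no member was called by it (0 of 11230 genes were, with 177 at an unadjusted p under 0.05). The N2ΔMy call was lost without any of 7 of its 8 libraries (all but Sham replicate 1). In wt cells the difference was -2.01 and was called without Sham replicate 3 (adjusted p = 0.035).

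Markers of several other cell types moved in the same direction as Cd163. Summed over 6 markers, those of dendritic cells lay between 823 and 1687 normalized counts in the 8 Sham Ly6Chi libraries and between 270 and 531 in the 8 IMQ Ly6Chi libraries, and 1 of the 6 was at 0 in all 4 libraries of each Sham group, against 0 of 6 in the IMQ groups. Flt3, the receptor tyrosine kinase of dendritic cell development, went from 476 to 870 in Sham libraries to 243 to 405 in IMQ libraries. The 14 macrophage markers summed to 6192 to 7672 in wt Sham against 3259 to 4343 in wt IMQ libraries, and to 5742 to 8418 against 4492 to 6359 in N2ΔMy cells. The 6 B cell markers had medians of 2610 and 1620 in wt and of 2764 and 1741 in N2ΔMy cells, in groups that overlapped. The part of these transcripts in the Cd163 difference was not tested.

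The remaining members were not called after IMQ. Hmox1 had 885, 790, 737 and 835 normalized counts in wt Sham libraries and 1156, 977, 872 and 1109 in N2ΔMy Sham libraries. Its log2 difference after IMQ was 0.16 ± 0.14 in wt (adjusted p = 0.518) and 0.25 ± 0.10 in N2ΔMy cells (adjusted p = 0.131). The 1239 of wt IMQ replicate 4 stood above the other 3 libraries of its group, in a library in which red blood cell markers summed to 777 against 1 to 36 in the others. In N2ΔMy Ly6Chi IMQ replicate 4, where they summed to 1568, Hmox1 was at 1242 against 1148 to 1259 in the others, and in wt Ly6Clo replicate 4 (1312) it was at 1381, below replicates 1 and 2. The part of these transcripts was not tested. Blvra differed by 0.22 ± 0.13 in wt and 0.24 ± 0.16 in N2ΔMy cells. Slc11a1, Blvrb, Tfrc, Ncoa4, Fth1 and Ftl1 had log2 differences between -0.23 and 0.39 in these comparisons, with adjusted p-values of at least 0.444.

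Between the genotypes no member was called in any of the 3 comparisons. In Ly6Clo IMQ cells, where 4.78% of all genes were called, the 9 members had a median log2 difference (N2ΔMy minus wt) of 0.22 beside -0.0035 for all genes. In Ly6Chi IMQ cells 0.0267% and in Ly6Chi Sham cells 0.0178% of all genes were called, and the members' medians were 0.13 and 0.15 beside 0.01 for all genes in both. The members with an unadjusted p under 0.05 were Hmox1 in all 3 comparisons and Blvra in both comparisons of Ly6Chi cells, where the share over all genes was 19.5% in Ly6Clo IMQ, 6.05% in Ly6Chi IMQ and 5.21% in Ly6Chi Sham cells.

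Hmox1 was higher on average in N2ΔMy cells of every kind. In Ly6Clo cells the means were 2166 ± 878 (SD, n = 4) in N2ΔMy and 1336 ± 320 in wt, and 2 of 4 N2ΔMy libraries exceeded all wt libraries. The log2 difference was 0.65 ± 0.27 (95% interval -0.02 to 1.31, adjusted p = 0.219), which was called once replicate numbers were blocked (adjusted p = 0.00443), as were 8.36% of all genes. It was also called with the library series as a covariate (adjusted p = 0.0126) and in a fit of all 24 libraries (adjusted p = 0.0471). Within the first series the difference was 0.86 (adjusted p = 0.0283) and within the second 0.43. In Ly6Chi cells it was 0.43 ± 0.14 after IMQ (adjusted p = 0.622, with the block 0.0744) and 0.34 ± 0.11 after Sham (adjusted p = 0.921, with the block 0.178). The summed macrophage markers were also higher in N2ΔMy than in wt Ly6Clo libraries, as given above, at 13119, 14442, 9581 and 10092 in replicates 1 to 4 of N2ΔMy Ly6Clo. Replicates 1 and 2, which make up library series 1, were the higher pair for both Hmox1 and this sum. Single markers differed in this. Mertk (376, 245, 197 and 184) was higher in replicates 1 and 2. C1qb (971, 742, 1187 and 1193) and C1qc (361, 338, 428 and 568) were higher in replicates 3 and 4. The part of these transcripts was not tested.

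Blvrb was not called between genotypes in Ly6Clo cells (log2 difference 0.22 ± 0.10, 95% interval -0.03 to 0.46, adjusted p = 0.261), with 3 of 4 N2ΔMy libraries above all wt libraries. Blvra had 318, 293, 259 and 303 normalized counts in wt Sham Ly6Chi libraries and 309, 346, 466 and 382 in N2ΔMy Sham Ly6Chi libraries. After IMQ the Ly6Chi libraries had 322, 312, 331 and 407 in wt and 374, 390, 461 and 544 in N2ΔMy cells, and the Ly6Clo libraries 357, 358, 324 and 454 in wt and 384, 447, 461 and 409 in N2ΔMy cells. Its genotype difference was 0.34 ± 0.14, 0.36 ± 0.15 and 0.20 ± 0.14 on the log2 scale in these 3 kinds of cells, none of them called. Groups overlapped in all of them.

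Cd163 in Ly6Clo cells was high in single libraries. It had 12, 11, 35 and 3 normalized counts in wt and 17, 14, 103 and 47 in N2ΔMy libraries, a log2 difference of 1.48 ± 0.77 (95% interval -0.39 to 3.35, adjusted p = 0.327). The library with 103 also held the highest sum of dendritic cell markers in its group, 1690 against 315, 212 and 676, and the wt library with 35 the highest in its group, 568 against 118, 153 and 86. The part of these transcripts was not tested. Within the first series the genotype difference was 0.40 and within the second 2.56. Slc11a1 was close in both genotypes in Ly6Clo cells, at 0.07 ± 0.16 (95% interval -0.33 to 0.47), and Fth1 was at -0.01 ± 0.12 (-0.29 to 0.28).

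Over all 6 groups, the F-test called 4 of 9 members with an adjusted p that did not exceed 0.01, where 43.0% of all genes were called. They were Slc11a1 (F = 69.1, adjusted p = 1.9e-11), Blvrb (F = 67.2, adjusted p = 2.41e-11), Tfrc (F = 15.2, adjusted p = 7.47e-06) and Hmox1 (F = 10.4, adjusted p = 0.00011). With the replicate block Blvra was called as well (adjusted p = 0.011 without and 0.00232 with it), 5 of 9 members against 57.1% of all genes. Cd163 (adjusted p = 0.0363), Fth1 (0.336), Ftl1 (0.967) and Ncoa4 (0.995) were not called, with or without the block.

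The ferritin light chain Ftl1 and the ferritin carrier Ncoa4 were set apart by library series, and neither was called in any comparison. Ftl1 had 6019 to 10761 normalized counts in the 12 libraries of the first series and 1854 to 3531 in those of the second. It was higher in the first series in all 6 groups, by 1.45 on the log2 scale on average (1.05 to 1.77), and 1.91% of tested genes differed by at least as much between the series. Ncoa4 had 245 to 403 in the first and 116 to 225 in the second series, with a mean difference of 0.88 that was reached by 4.88% of tested genes. For both genes no library of one series overlapped the other.

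Fth1 did not follow its partner chain. It had 5312 to 7117 in the first and 5685 to 8750 in the second series, a mean difference of -0.20. Per kilobase, the ratio of Ftl1 to Fth1 was therefore 0.669 to 1.00 in first-series libraries and 0.207 to 0.286 in second-series libraries. Within the first series Ftl1 had 6232 and 6181 in wt and 7012 and 7813 in N2ΔMy Ly6Chi Sham libraries, 6019 and 6997 and 7179 and 7425 after IMQ, and 8086 and 8843 and 9578 and 10761 in Ly6Clo libraries. Both N2ΔMy libraries exceeded both wt libraries in each of these 3 kinds of cells. In the second series this held for Ly6Chi IMQ cells (2291 and 3087 in wt, 3512 and 3531 in N2ΔMy) and not for Ly6Chi Sham (2420 and 2534 against 2367 and 2777) or Ly6Clo cells (1854 and 3429 against 2774 and 3197). With the series inside the error, the intervals of Ftl1 between genotypes were wide, for instance -1.13 to 1.63 in Ly6Clo cells, and with the block the adjusted p-values were 0.102 to 0.378.

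**Figure D3:**
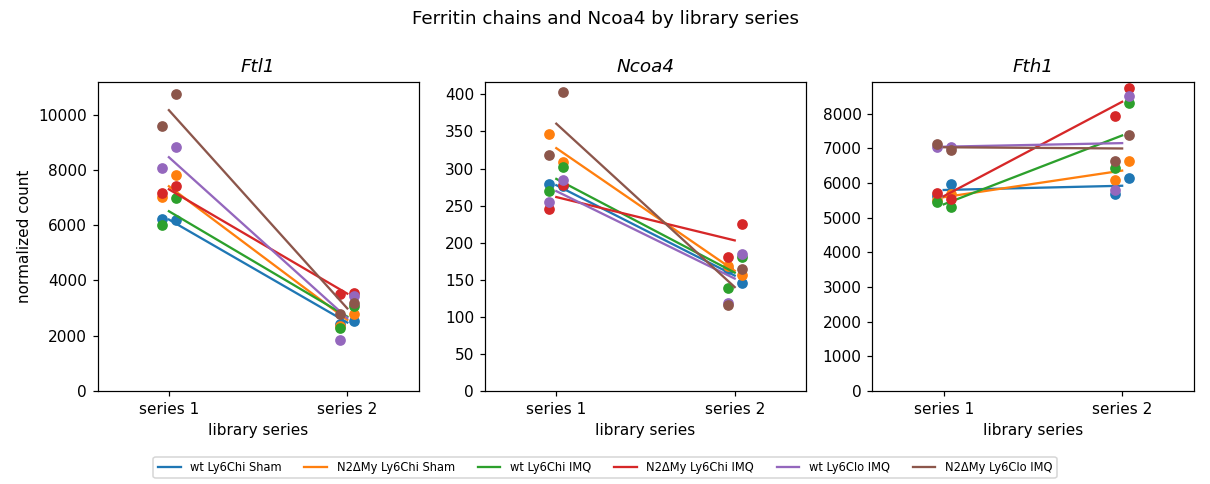
Normalized counts (y axis, linear, from 0) of Ftl1, Ncoa4 and Fth1 in library series 1 and 2 (x axis), with 1 point per library and a line joining the means of each group. All 6 lines of Ftl1 and Ncoa4 fall from series 1 to series 2 with no overlap between the series, while the libraries of Fth1 overlap between them.

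Reads of these short, abundant transcripts can be shared with copies in the genome. GENCODE M21 holds 9 genes with at least 90% identity to Ftl1 over 200 bases or more. Together they held at most 1.01% of the normalized counts of gene and copies in any library. Fth1 (not counting the chr8 entry) and Ncoa4 have 1 such gene each, at most 0.499% and 3.70%, and the other 7 members have none. Ftl1 also overlaps Gm10252 on the opposite strand, whose mean value was 4.92 (1 of the 9). How reads that match a gene and its copy equally were counted is not given, so these shares do not show how many reads are shared.

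The patterns over the 24 libraries (log2 values, all sharing the deposited normalization and the library series) can be compared with those of all tested genes. Most like Slc11a1 were Fndc1 (Pearson r = 0.977), Pparg (0.975) and Serpinb6a (0.974), and most like Blvrb were Cdk14 (0.978), Adrb1 (0.967) and Pik3ap1 (0.966). Slc11a1 and Blvrb had r = 0.957 with each other and r = 0.841 and 0.87 with Tfrc, which was itself close to Hr (0.902) and Sox5 (0.897). Hmox1 was closest to Por (0.934), Cnnm4 (0.922) and RP23-185A18.9 (0.906), and Por encodes the reductase that feeds electrons to heme oxygenase. Cd163 was closest to Tns1 (0.912) and to the MHC class II genes H2-Ab1 (0.885) and Cd74 (0.877). Ncoa4 was closest to Ftl1 (0.939) and Arf1 (0.938), and Ftl1 to Drg1 (0.973), Dcaf7 (0.967) and Lims1 (0.967). After centring each series, r of Ftl1 with Drg1, Dcaf7 and Lims1 was 0.744, 0.751 and 0.895, r of Ncoa4 with Ftl1 and Arf1 was 0.663 and 0.675, while r between Fth1 and Ftl1 went from -0.187 to 0.848. Fth1 was closest to Cdc42 (0.866), Tmsb4x (0.858) and Gsto1 (0.835), and Blvra to Ywhaq (0.839), Ube2a (0.813) and Jkamp (0.808).

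Other genes of the pathway were taken from lists of 82 symbols, of which 79 were in the table and 64 were tested. These lists, too, were chosen with earlier results of these data known. Between genotypes in Ly6Clo cells 7 of 64 were called (10.9%, against 4.78% of all genes), 3 higher and 4 lower in N2ΔMy cells. Between genotypes in Ly6Chi cells 0 of 64 were called, after IMQ or Sham, where only 0.0267% and 0.0178% of all genes were. The lists of iron uptake and reduction (2 of 8 called), regulators of iron and heme genes (4 of 13) and Nrf2 targets (1 of 8) held these genes, and no gene of heme synthesis (8 tested), of heme uptake, export and breakdown (6), of iron storage and chaperones (5), of iron export and oxidases (1) or of mitochondrial iron and iron-sulfur clusters (15) was called there. The oxidase tested, Cp (ceruloplasmin), was close to the threshold, at -0.74 ± 0.20 (adjusted p = 0.0503), and was called with the replicate block (adjusted p = 0.000218), with which 9 of 64 genes and 8.36% of all genes were called.

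Steap3, the endosomal reductase that works with the transferrin receptor, had 7, 19, 15 and 18 normalized counts in wt Ly6Clo libraries and 300, 189, 197 and 201 in N2ΔMy Ly6Clo libraries. Ly6Chi libraries lay between 168 and 346, so that wt Ly6Clo cells alone were low. It was higher in N2ΔMy Ly6Clo cells by 3.88 ± 0.33 on the log2 scale (adjusted p = 0.000156) and lower in wt Ly6Clo than in wt Ly6Chi cells, by -3.82 ± 0.31 (adjusted p = 6.13e-06), while in N2ΔMy cells the subsets differed by -0.37 ± 0.19 (adjusted p = 0.166). Its genotype by subset interaction was called (3.45 ± 0.35, adjusted p = 6.95e-05), the only one of 64 (1.03% of all genes), and with the block Gsr, Mitf and Slc39a14 were called by that interaction as well, 4 of 64 in all against 2.41% of all genes. Slc39a14, which imports iron not bound to transferrin, had 50, 38, 31 and 17 in wt and 99, 86, 89 and 102 in N2ΔMy Ly6Clo libraries (1.53 ± 0.33, adjusted p = 0.019). Ly6Chi markers were also higher in N2ΔMy Ly6Clo cells, as given above, and their part in these differences was not tested.

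Among regulators, Spic, the transcription factor of iron-recycling red pulp macrophages, had 643, 427, 259 and 372 normalized counts in wt and 129, 172, 103 and 142 in N2ΔMy Ly6Clo libraries. It fell by 1.58 on the log2 scale (SE 0.26, adjusted p = 0.00552). Hfe, the hemochromatosis protein that binds the transferrin receptor, had 7183, 7498, 6007 and 8538 in wt and 4331, 3857, 3809 and 4441 in N2ΔMy Ly6Clo libraries, against 490 to 2071 in all Ly6Chi libraries. It was lower in N2ΔMy Ly6Clo cells (-0.82 ± 0.12, adjusted p = 0.00206). The summed markers of Ly6Clo monocytes (7 genes) were lower there too, at 85990 to 102657 against 148794 to 171234 in wt Ly6Clo libraries, and their part in these differences was not tested. Rnf217, a ubiquitin ligase of ferroportin (-0.75 ± 0.16, adjusted p = 0.0175), and Gsr, glutathione reductase (-0.88 ± 0.19, adjusted p = 0.0186), were lower as well, and the transcription factor Mitf was higher (1.12 ± 0.13, adjusted p = 0.000701). Without the filter on low values Spic (adjusted p = 0.0805), Slc39a14 (0.101), Gsr (0.176) and Rnf217 (0.0804) were not called between genotypes, and within the second series alone neither were these 4 genes nor Hfe (0.0544 to 0.0751). Steap3 and Mitf were called under these alternatives too.

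In wt IMQ mice 17 of 64 pathway genes were called between Ly6Clo and Ly6Chi cells (26.6%, against 24.6% of all genes), 7 higher and 10 lower, and in N2ΔMy mice 13 of 64 (20.3%, against 17.4%), 6 higher and 7 lower. Among them, the largest differences with higher values in Ly6Clo cells were those of Cp, the ferroxidase ceruloplasmin, and Spic. Cp had 2055, 1978, 1184 and 1533 normalized counts in wt Ly6Clo and 1144, 1216, 846 and 810 in N2ΔMy Ly6Clo libraries, against 22 to 58 in the 8 Ly6Chi IMQ libraries. Its log2 difference was 5.39 ± 0.27 in wt and 4.85 ± 0.23 in N2ΔMy cells (adjusted p = 4.34e-07 and 3.77e-07). Spic was 4.99 ± 0.39 higher in wt and 4.68 ± 0.51 in N2ΔMy Ly6Clo cells (adjusted p = 4.35e-06 and 6.27e-05). The Ly6Chi IMQ libraries were at 23, 6, 12 and 11 in wt and at 1, 6, 10 and 4 in N2ΔMy cells. Values this low resolve the size of such a difference poorly. The largest differences with lower values in Ly6Clo cells were those of Steap3 in wt, given above, and of Lcn2, the siderophore-binding lipocalin (-3.36 ± 0.33 in wt and -3.41 ± 0.29 in N2ΔMy cells). Trf, transferrin, had 77, 31, 236 and 180 in N2ΔMy Ly6Chi IMQ and 11, 9, 61 and 37 in N2ΔMy Ly6Clo libraries (-2.14 ± 0.71, adjusted p = 0.0489), with overlapping groups, and in wt cells it was not called (-0.84 ± 0.53, adjusted p = 0.252) but was with the block (adjusted p = 0.0229). The N2ΔMy call was lost in 8 ways of leaving out libraries (adjusted p = 0.0563 to 0.142).

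After IMQ, 9 of 64 pathway genes were called in wt Ly6Chi cells (14.1%, against 9.49% of all genes), 7 higher and 2 lower, and 8 of 64 in N2ΔMy Ly6Chi cells (12.5%, against 8.70%), 7 higher and 1 lower. Lcn2 had 3, 5, 13 and 18 normalized counts in wt Sham and 1151, 1325, 1470 and 2861 in wt IMQ libraries, and 3, 11, 12 and 1 in N2ΔMy Sham and 1427, 1966, 2370 and 2640 in N2ΔMy IMQ libraries. Its log2 difference was 7.48 ± 0.47 in wt (adjusted p = 1.92e-05) and 8.43 ± 0.55 in N2ΔMy cells (adjusted p = 3.07e-05). Sham values this low resolve the size of such a difference poorly. Lcn2 is also a neutrophil granule protein, and the neutrophil marker sum was 7325 to 12412 in Ly6Chi IMQ against 6081 to 7161 in Sham libraries. Of these markers, Ly6g was at 0 in all Ly6Chi IMQ libraries and at 0 or 1 in the Sham libraries. The part of neutrophil transcripts was not tested. Cp was at 4, 1, 0 and 0 in wt Sham and at 45, 36, 23 and 58 in wt IMQ libraries, and in N2ΔMy cells at 0 in all 4 Sham and at 22, 34, 41 and 40 in IMQ libraries, and it was called in both.

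Lower after IMQ was Abcg2, an exporter of porphyrins and heme. It had 68, 82, 108 and 46 normalized counts in wt Sham and 22, 19, 19 and 7 in wt IMQ libraries (-2.16 ± 0.41, adjusted p = 0.00508). In N2ΔMy cells it had 60, 46, 78 and 53 in Sham and 26, 34, 35 and 29 in IMQ libraries (-0.90 ± 0.26, adjusted p = 0.0456), and with the replicate block this was not called (adjusted p = 0.0516). It was also not called in any of 10 ways of leaving out libraries (adjusted p = 0.0501 to 0.163). Spic was lower in wt cells, with 41, 39, 32 and 33 in Sham and 23, 6, 12 and 11 in IMQ libraries (-1.54 ± 0.41, adjusted p = 0.0268). That call was lost without the filter on low values (adjusted p = 0.0895) and within either series alone (0.131 and 0.170). Macrophage and dendritic cell markers were lower there too, as given above, and their part was not tested. In N2ΔMy cells Spic had 9, 12, 31 and 15 in Sham and 1, 6, 10 and 4 in IMQ libraries, a similar difference (-1.61 ± 0.61) that was not called (adjusted p = 0.119) but was with the block (adjusted p = 0.045).

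**Figure D4:**
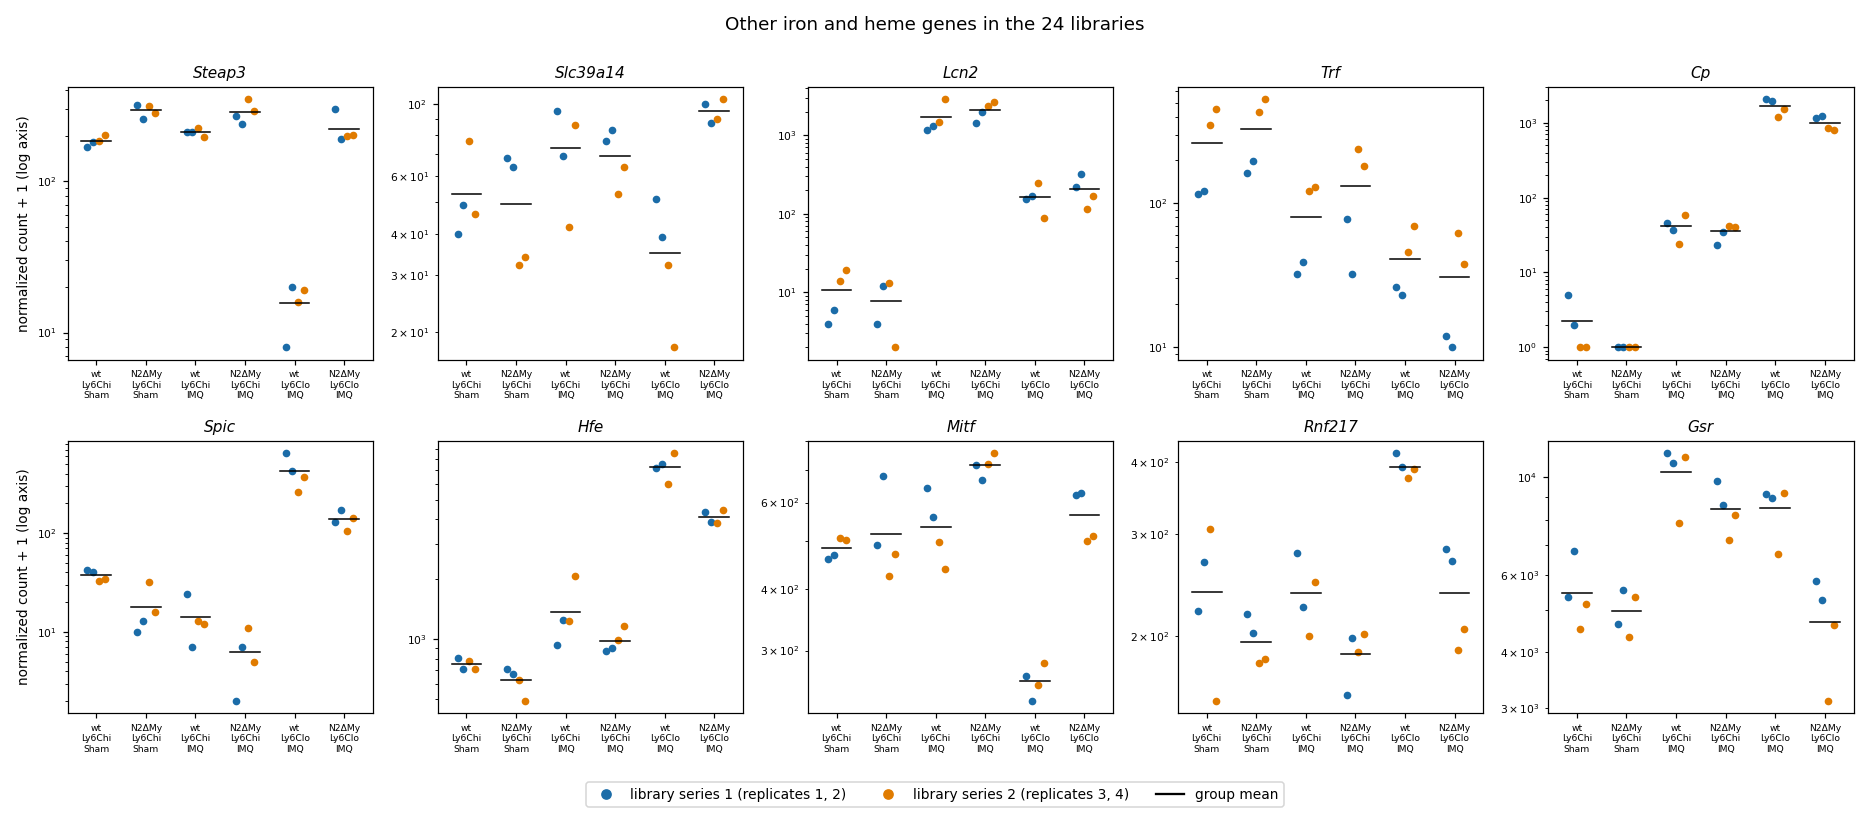
Normalized counts plus 1 (y axis, log scale) of 10 other iron and heme genes in the 6 groups (x axis), with 1 point per library coloured by library series and a line at the group mean. Steap3 is low in wt Ly6Clo cells alone, at 7 to 19, Spic, Hfe and Cp stand highest in wt Ly6Clo cells, and Lcn2 stands highest in Ly6Chi cells after IMQ.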

How the data were processed

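RNA-sequencing libraries of sorted Ly6Chi and Ly6Clo cells were grouped by the genotype, subset and treatment in their labels. The authors sequenced stranded total RNA libraries as single reads, trimmed them with Trim Galore 0.4.4, aligned them with STAR 2.5.3a to GRCm38.p6 in the nf-core/rnaseq pipeline, and normalized counts with DESeq2. The read counter and its strand setting are not given in the sources used here. The deposited values are scores: normalized counts rounded to whole numbers, not raw counts, so that the count test planned for raw counts was not run. Deposited columns of the authors' own comparison (log2 fold change, standard error, Wald statistic, p-values) were not used. Depth was inferred from which whole numbers occur, as 9522720 to 19759572 reads per library (14579518 to 19759572 in series 1, 9522720 to 15594484 in series 2), and was not used in any test.

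The members and gene lists were chosen with earlier results of these data known. Genes at 50 or more in at least 1 of 24 libraries were tested (11230 of 53715, of which 25137 were at 0 throughout) with limma 3.58.1 in R 4.3.3 (lmFit, eBayes with trend) on log2(value + 1), where low values are compressed, on the 8 libraries compared, the 16 of an interaction or all 24 for the F-test, with Benjamini-Hochberg adjustment over all genes. Single genes were also tested by exact permutation over 70 splits. Nothing in the labels says which mice each library came from, so that p-values measure only the spread between these libraries. Named pathway genes were all listed genes called between genotypes in Ly6Clo cells and the 2 with the largest rise and fall in each other comparison, the 3 nearest genes were taken per member (1 of Ncoa4 known by a clone name only is left out, and 1 of Tfrc is not reported here), and genes at 0 got no fold. Same-numbered libraries deviated from their group means together (r = 0.16 to 0.619 in 28 of 28 pairs, 22 closest to their own number), so that the replicate number was also fitted as a block. On simulated data the 2-group test recovered 178 of 200 changed genes with 9 others called, the interaction 134 with 8 others and the F-test 170 with 6 others, among 11230 genes of mixed folds. The simulated libraries held no series or replicate effect, so these numbers do not describe how the tests perform on the real libraries. Python 3.11.15 with pandas 2.3.3, scipy 1.17.1 and matplotlib 3.10.9 was used otherwise. Alternatives were other pseudocounts, filters, scalings and designs, and leaving out libraries.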

Additional observations from a re-analysis of the deposited data

Results flagged for a closer look

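One library stood far from the other 3 of its group in 7 of 60 combinations of gene and group (gap to the nearest library over the range, above Dixon's 95% critical value), where chance gives about 1 in 20 for values without ties, a rate that does not hold for the 3 of Slc40a1, whose other libraries were at 0. They were Hmox1 in wt Ly6Chi IMQ cells (1239, others 792 to 827), Slc11a1 in N2ΔMy Ly6Chi Sham cells (2209, others 1652 to 1729), Tfrc in N2ΔMy Ly6Chi IMQ cells (53, others 47 to 48) and Blvrb in N2ΔMy Ly6Clo IMQ cells (664, others 777 to 786). For Slc40a1 they were 9 in wt Ly6Chi Sham cells and 1 in N2ΔMy Ly6Chi cells after Sham and after IMQ, each with the other libraries at 0.

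The difference between genotypes depended on the subset for Steap3, with an interaction of 3.45 on the log2 scale (limma, SE 0.35, adjusted p = 6.95e-05), higher in 4 of 4 N2ΔMy Ly6Clo libraries than in all wt Ly6Clo libraries. In Ly6Chi cells, too, 4 of 4 N2ΔMy libraries exceeded all wt libraries, after Sham (log2 difference 0.68) and after IMQ (0.44), and neither difference was called. The share of all genes without overlap is not given for these genotype comparisons.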

How the results depend on the processing

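Of 113 results of single genes, 96 kept their side of the threshold under every alternative run for them and 17 did not under at least 1, and 0 called results turned their direction. In the comparison of subsets, higher Blvrb and Slc11a1 in Ly6Clo cells were called in both genotypes under all alternatives, as was Tfrc except within the second series alone in wt cells (1.25, adjusted p = 0.129).

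Of the members, 1 in place of 0 was called between genotypes in Ly6Clo cells with the replicate block, with the series as a covariate, in the fit of all 24 libraries and within the first series alone, and 0 within the second (all Hmox1). In wt Ly6Chi cells after IMQ 1 in place of 0 was called under quantile normalization, the block, the series covariate and the first series alone, and 0 to 1 with libraries left out (all Cd163). In N2ΔMy Ly6Chi cells after IMQ 0 in place of 1 was called under a pseudocount of 0.1, values under 1.1 set to 1.1, no filter, equal sums per library, quantile normalization, no trend, the fit of all 24 libraries and either series alone, and 0 to 1 with libraries left out (all Cd163), the cause of which was not tested. Beside the calls for which the report gives the block, it made calls of Trf after IMQ in both genotypes (adjusted p = 5.2e-05 in wt and 0.00547 in N2ΔMy cells) and of Abcg2 between N2ΔMy subsets (0.0316), and it changed no other call of the members and named pathway genes. With libraries left out, 3 to 4 members were called between subsets in wt and 3 to 4 in N2ΔMy cells, and 0 in the 3 genotype comparisons and both interactions. Leaving out libraries also ended calls of Abcg2 (N2ΔMy, 10 of 10 ways), Trf (8), Spic after IMQ (7), and Gsr, Rnf217 and Slc39a14 between genotypes (4 each), with adjusted p-values from 0.0501 to 0.163. Gsr was also lost without the trend (0.061), Slc39a14 (0.119) and Rnf217 (0.103) within the first series alone, Abcg2 after IMQ within the second series alone in wt (0.0598) and under 7 alternatives in N2ΔMy cells (0.0504 to 0.290), Spic after IMQ in wt without the filter (0.0895) and within either series (0.131 and 0.170), and Trf between N2ΔMy subsets under 4 alternatives (0.0505 to 0.265).

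Genes called between genotypes in Ly6Clo cells numbered 180 in the second series alone to 939 with the block, against 537, and in the genotype by subset interaction 18 to 271 against 116. Values under about 10, as for Slc40a1, are at the limit of what this depth resolves.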
